A study of Mus musculus with 9 samples.

Results

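Neuropeptides are short signalling peptides that neurons cut from larger precursor proteins, store in dense-core vesicles and release beside their fast transmitter. In the spinal cord most peptide precursor genes are best known from interneurons of the dorsal horn, where they mark separate excitatory and inhibitory populations that handle pain, itch and touch, and much less from motor neurons. The 10 precursor genes described here are Npy, Sst, Tac1, Penk, Pdyn, Cck, Nts, Grp, Vip and Tac2. They were chosen by name from a table of 55401 mouse genes, each symbol matched 1 row, and all 10 passed the filter on low counts that left 15893 genes for testing.

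The libraries were made by Smart-seq2, which copies whole transcripts from very little RNA, from fluorescently labelled motor neurons that were drawn into glass electrodes from slices of wild-type mouse spinal cord. There were 3 groups of 3 libraries, all collected 4 weeks after spinal cord injury or its sham: a sham group labelled as having no treatment, an untrained group that carried the injury, and a group that carried it and received synergistic bidirectional electrical stimulation (SBES). The SBES libraries 1, 2 and 3 came from stimulation at 10, 15 and 20 Hz, so that each frequency had 1 library and frequency and library cannot be told apart. The labels name 3 mice per group but neither tie a library to a mouse nor give a number of neurons per library or the age of the mice, so the p-values measure the spread between these libraries, which may be technical in part. The table columns of 5 libraries matched the labels by name, and those of the 3 untrained libraries and of SBES 1 were matched by elimination, so every value of these 4 libraries rests on that match.

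Total counts ran from 11821145 to 17675948 per library, and between 21791 and 23929 genes had at least 1 count. Levels below are CPM, counts scaled to a common library size after TMM adjustment of the library totals, and levels of different genes are compared in the deposited FPKM, which also divides by transcript length. Sham 1, untrained 1 and SBES 1 stood apart from the other 6 libraries: Malat1, a noncoding RNA kept in the nucleus, was at 15128, 16069 and 4774 CPM there, without TMM adjustment, and at 514 to 1617 CPM in the others. SBES 1 also held 18.6% mitochondrial counts, against 2.47% to 7.36% in the others. Markers of motor neurons were present in every library, with Chat, the acetylcholine-synthesising enzyme, at 19.6 to 34.6 CPM, but so were markers of excitatory and inhibitory interneurons and of glia. Slc17a6, the vesicular glutamate transporter of excitatory neurons, lay at 35.7 to 73.3 CPM, and Gad1, an enzyme of GABA synthesis, at 23.2 to 65.3 CPM. The files hold no measurement per cell, so which cells the peptide transcripts came from was not tested, and fewer cells of a type and less RNA per cell cannot be told apart in these libraries.

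Promoters of these genes are shown first, and whether their letters bear on the levels between libraries was not tested. RefSeq windows of 250 bases before to 50 after the transcription start (GRCm38.p6) were found for 8 of the 10 genes, in 9 windows. The cAMP response element, read by the activity-dependent factor CREB, is a well-known feature of several peptide promoters. Its letters TGACGTCA were searched on both strands, and so were its 5-base parts TGACG and CGTCA, which lie within it. The full element was in the Sst window, 48 bases before the start. A 5-base part was in the windows of 5 genes, Sst, Vip, Tac1, Cck and Nts, and in none of those of Npy, Pdyn and Tac2. Over all 32851 windows of the same length, 1.79% held the full element and 20.8% a 5-base part. The stretches below carry matches of Sst, Tac1, Cck and Vip, with Npy as a gene without one, and a second Tac1 match at -197 lies outside its stretch. They run 5′ to 3′ on the coding strand with the matched letters in capitals. Those of Sst and Tac1 cover the 30 bases from -60 to -31, because annotated GENCODE exons of these genes begin upstream of the RefSeq start, and the others cover the 100 bases before the start. Their positions are chr16:23890875-23890904 (minus strand), chr6:7555001-7555030 (plus), chr9:121495695-121495794 (minus), chr10:5639118-5639217 (plus) and chr6:49822610-49822709 (plus).
Sst: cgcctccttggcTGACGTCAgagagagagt
Tac1: acgtggctctacaggctCGTCAcgcctgag
Cck: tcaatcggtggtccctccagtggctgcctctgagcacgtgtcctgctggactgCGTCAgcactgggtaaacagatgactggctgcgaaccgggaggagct
Vip: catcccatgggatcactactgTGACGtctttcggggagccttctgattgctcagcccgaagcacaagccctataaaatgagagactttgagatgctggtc
Npy: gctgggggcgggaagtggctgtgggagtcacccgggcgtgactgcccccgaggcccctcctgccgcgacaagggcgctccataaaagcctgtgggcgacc
A match describes letters only, and no binding was measured.

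Per transcript length, Sst and Penk were the most abundant of the 10 precursors. Mean FPKM over the 9 libraries was 433 for Sst, 344 for Penk, 143 for Npy, 85.2 for Cck, 41.2 for Tac2, 31.8 for Nts, 24.0 for Tac1, 4.86 for Grp, 2.81 for Pdyn and 0.928 for Vip. Not all neighbours in this order were apart: Sst exceeded Penk in 6 of 9 libraries, Npy exceeded Cck in 6, Tac2 exceeded Nts in 4 and Nts exceeded Tac1 in 5. Penk lay above Npy, Tac1 above Grp, Grp above Pdyn and Pdyn above Vip in all 9 libraries, and Cck lay above Tac2 in 8. Sst made up 29.7% to 48.4% of the summed FPKM of the 10 genes and Penk 21.1% to 40.0%. Together the 10 genes took 385 CPM in the library with least and 3737 CPM in the library with most, a 9.71-fold range, so their summed level varied far more than the shares of its 2 main members.

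The opioid precursors were Penk, which encodes the enkephalins, and Pdyn, which encodes the dynorphins. Penk (chr4:4133531-4138819 in mm10, minus strand) reached 659, 351 and 176 CPM in sham libraries 1, 2 and 3, 1647, 189 and 436 CPM in untrained libraries, and 661, 585 and 410.2 CPM in SBES libraries. Untrained 1 was the highest library and sham 3 the lowest, the untrained group covered nearly the whole span, and the 3 groups overlapped. Exons of Penk overlap those of A830012C17Rik on the other strand, and the strand setting of the counting is not given in the sources used here, but that gene had at most 17 counts in a library against at least 3236 for Penk. Pdyn (chr2:129686565-129699844, minus strand) was far lower, at 6.65, 6.35 and 1.31 CPM in sham, 33.1, 1.11 and 6.70 CPM in untrained, and 4.23, 8.11 and 3.96 CPM in SBES libraries. Untrained 1 again stood highest, with 29.7 times the level of untrained 2, the lowest library.

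The tachykinin precursors were Tac1, source of substance P and neurokinin A, and Tac2, source of neurokinin B. Tac1 (chr6:7554879-7565834, plus strand) measured 105, 42.8 and 14.8 CPM in sham, 206, 11.6 and 115 CPM in untrained, and 103, 92.6 and 56.8 CPM in SBES libraries. Both the highest and the lowest level were in untrained libraries, and the SBES libraries lay between them. Tac2 (chr10:127724478-127731768, plus strand) had the widest range of the 10 genes, 66.2-fold. It measured 108, 36.4 and 3.49 CPM in sham, 231, 7.35 and 33.0 CPM in untrained, and 18.8, 65.5 and 13.0 CPM in SBES libraries. The high libraries were untrained 1 and sham 1, the low ones sham 3 and untrained 2, and no group was apart from another.

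Sst encodes somatostatin and Npy encodes neuropeptide Y, both peptides with inhibitory receptors, and in the dorsal horn Sst marks mainly excitatory and Npy mainly inhibitory interneurons. Sst (chr16:23889573-23890958, minus strand) reached 667, 158 and 86.7 CPM in sham, 1045, 68.1 and 202 CPM in untrained, and 231, 250.3 and 202 CPM in SBES libraries. The SBES libraries lay within 1.24-fold of each other, while sham libraries spanned 7.69-fold and untrained libraries 15.3-fold. Npy (chr6:49822710-49829507, plus strand) measured 136, 31.3 and 27.8 CPM in sham, 271, 15.1 and 56.9 CPM in untrained, and 89.6, 76.2 and 45.6 CPM in SBES libraries. For both genes untrained 1 and sham 1 were the 2 highest libraries and untrained 2 was the lowest.

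Cck, Grp and Vip encode cholecystokinin, gastrin-releasing peptide and vasoactive intestinal peptide, the second known in the dorsal horn for itch. Cck (chr9:121489824-121495694, minus strand) measured 267, 124 and 80.5 CPM in sham, 198, 38.7 and 70.6 CPM in untrained, and 63.6, 125 and 62.3 CPM in SBES libraries. It was the only one of the 10 genes whose highest library was sham 1, with untrained 1 second. Grp (chr18:65872820-65886596, plus strand) ran from 1.84 CPM in untrained 2 to 21.1 CPM in untrained 1, with sham libraries at 10.3, 7.43 and 2.29 CPM and SBES libraries at 5.35, 6.93 and 5.19 CPM. Vip (chr10:5639218-5647617, plus strand) was the least abundant, from 0.612 CPM in untrained 2, which is 11 counts, to 6.41 CPM in untrained 1. For these genes too the untrained libraries enclosed the SBES libraries.

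Nts encodes neurotensin and did not follow the other 9 genes. It (chr10:102481756-102490486, minus strand) measured 26.9, 34.1 and 41.8 CPM in sham, 78.3, 51.5 and 27.6 CPM in untrained, and 35.7, 31.4 and 21.1 CPM in SBES libraries. Untrained 1 was highest here as well, but untrained 2, the lowest library for 7 of the other genes, was second, and sham 1 lay below sham 2 and sham 3. Its range over the 9 libraries was 3.71-fold, the narrowest of the 10 genes.

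**Figure D1:**
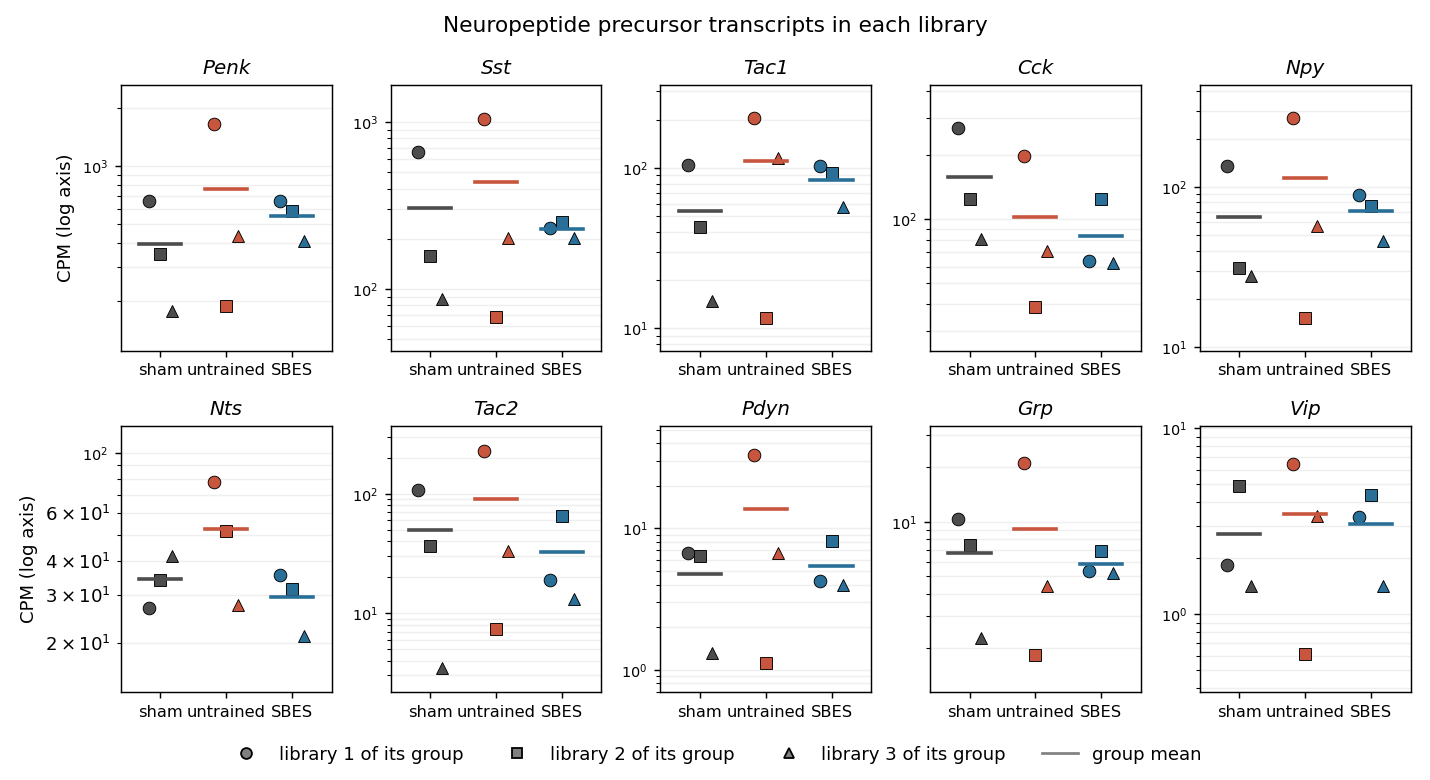
CPM of each precursor transcript (log axis) in the sham, untrained and SBES libraries, 1 panel per gene in order of its median level, with marker shapes for library number and a line for the group mean. The untrained libraries spread most, from untrained 1 (circle) down to untrained 2 (square) for 9 genes and to untrained 3 (triangle) for Nts, and the groups overlap in every panel.

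Untrained libraries were set against sham libraries for the effect of injury. No precursor gene passed edgeR's quasi-likelihood test with Benjamini-Hochberg adjustment over all genes in this comparison (adjusted p = 1.00 for all 10), and neither did any other gene, so that the share called was 0.0%; DESeq2 called 19 genes, none of them among the 10. Group means of CPM were 395 ± 244 (SD, n = 3) in sham and 757 ± 780.1 in untrained libraries for Penk, 304 ± 316 and 439 ± 529.8 for Sst, and 64.9 ± 61.3 and 114 ± 137 for Npy. The SD in untrained libraries exceeded the mean for these 3 genes, and over the 10 genes the median coefficient of variation was 66.2% in sham, 109% in untrained and 30.3% in SBES libraries. Log2 fold changes were 1.53 (SE 0.89) for Pdyn, 1.04 (SE 0.79) for Tac1, 0.94 (SE 0.65) for Penk, 0.88 (SE 1.13) for Tac2, 0.82 (SE 0.82) for Npy, 0.61 (SE 0.35) for Nts, 0.53 (SE 0.84) for Sst, 0.46 (SE 0.72) for Grp, 0.33 (SE 0.71) for Vip and -0.62 (SE 0.56) for Cck. Thus 9 of 10 were positive, with a median of 0.72 against -0.01 over all genes tested, and none had an unadjusted p under 0.05, a level reached by 4.45% of all genes. No precursor gene had sham and untrained libraries that did not overlap, as 9.76% of all genes did. Without untrained 1 the median turned to -0.62 and 8 of 10 fold changes were negative, and without sham 1 it was 1.70 with all 10 positive.

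SBES libraries were set against untrained libraries for the effect of stimulation after injury. All 10 fold changes were negative, with a median of -0.67 on the log2 scale against 0.02 over all genes, but none passed the test, and again 0.0% of all genes did by edgeR. DESeq2 called 33 genes and again none of the 10. The lowest unadjusted p was that of Nts (52.5 ± 25.4 CPM in untrained and 29.4 ± 7.49 CPM in SBES libraries, log2 fold change -0.84, SE 0.35), at 0.033 with an adjusted p of 0.914 by edgeR. It was the only one of the 10 under 0.05 before adjustment, against 5.37% of all genes. Tac2 (90.4 ± 122 and 32.5 ± 28.8 CPM) had a log2 fold change of -1.47 (SE 1.15) and Pdyn (13.6 ± 17.1 and 5.44 ± 2.32 CPM) one of -1.31 (SE 0.88). The other 7 lay between -0.94 (Sst) and -0.19 (Vip). The 2 groups overlapped for all 10 genes, whereas they did not for 10.4% of all genes. Without untrained 1, 9 of the 10 fold changes were positive with a median of 0.63, and Nts alone remained negative, at -0.46 (SE 0.32).

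SBES libraries were also set against sham libraries, a comparison that shares the sham libraries with the first and the SBES libraries with the second, and all 9 libraries set its estimate of the spread. Here 5 fold changes were positive and 5 negative, with a median of -0.03 against 0.00 over all genes. With the replicate block 8 were positive (median 0.31), without sham 1 there were 7 (median 0.63) and without sham 3 there were 2 (median -0.24). The largest were -0.91 (SE 0.56) for Cck (157 ± 97.4 CPM in sham and 83.6 ± 35.8 CPM in SBES libraries; edgeR adjusted p = 0.694) and 0.64 (SE 0.79) for Tac1 (54.2 ± 46.1 and 84.1 ± 24.1 CPM). No precursor gene was among the 55 genes called, which are 0.346% of those tested, none had an unadjusted p under 0.05, as 9.31% of all genes did, and none had groups that did not overlap, as 13.8% did. With the library number as a replicate block 132 genes were called and DESeq2 called 300, none of them among the 10. The 55 calls fell to 29 without sham 1, to 6 without sham 2, to 0 without sham 3 and to 4 without SBES 3. SEs of the 10 genes ran from 0.35 to 1.15 over the 3 comparisons, against a median of 0.33 to 0.34 over all genes.

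**Figure D2:**
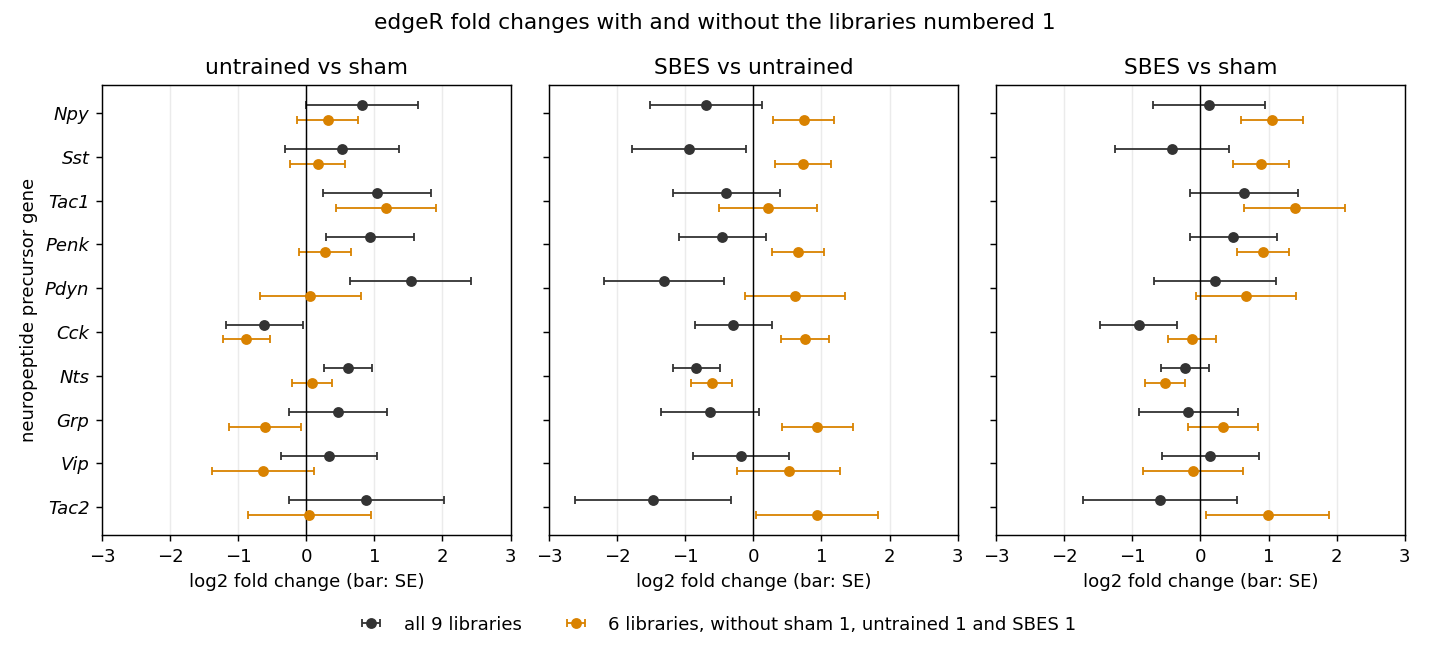
Log2 fold changes with their SE from edgeR for the 10 genes in the 3 comparisons, with all 9 libraries (black) and with 6 libraries after omitting sham 1, untrained 1 and SBES 1 (orange). In SBES against untrained all 10 black points are negative and 9 of 10 orange points are positive, Nts being the exception.

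Libraries of the sham and untrained groups differed widely within their group, and 9 of the 10 precursor genes, all but Nts, shared much of this variation. Untrained 1 was the highest of the 9 libraries for 9 of the 10 genes, here all but Cck and with Nts among them. Of all tested genes, 15.0% had it highest and 15.2% had it lowest. It exceeded the median of the other 8 libraries 8.91-fold for Tac2, 6.25-fold for Pdyn, 5.28-fold for Npy, 5.17-fold for Sst, 4.00-fold for Grp and 3.89-fold for Penk, and between 2.39-fold (Nts) and 2.75-fold (Tac1) for the remaining 4. Within the sham group, sham 1 was highest and sham 3 lowest for 8 of the 10 genes, all but Nts and Vip, an order found for 18.9% of all genes. Within the untrained group, untrained 1 was highest and untrained 2 lowest for 9 of the 10, all but Nts, an order found for 19.8% of all genes. The highest library had at least 5 times the level of the lowest for 9 of the 10 genes and for 15.2% of all genes. The median ratio of highest to lowest library was 13.4 for the 10 genes and 2.45 for all genes tested. These library orders were looked up after the values were seen and are given as descriptions.

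Pearson correlations of log2(CPM + 1) over the 9 libraries put the same pattern in numbers, as descriptions that share libraries and library totals. The 36 pairs among the 9 genes without Nts had r from 0.55 to 0.97 with a median of 0.86, and a median Spearman rho of 0.78. After group means were removed the median was 0.92, and without untrained 1 it was 0.80. When the 2 libraries farthest from the median were left out for each pair, r ranged from 0.06 to 0.97 with a median of 0.71, so some pairs rested on those libraries. The 9 pairs with Nts had r from -0.05 to 0.29, and from -0.72 to -0.29 without untrained 1, the library in which Nts and 8 of the other genes were highest.

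**Figure D3:**
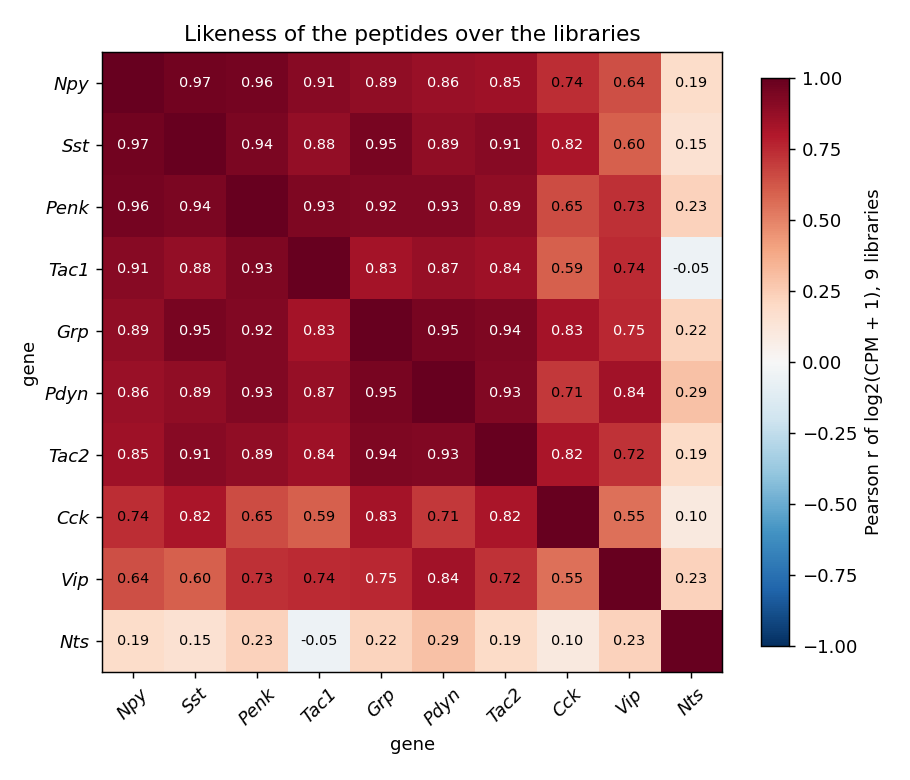
Pearson r of log2(CPM + 1) over the 9 libraries for each pair of the 10 genes. The block of 9 genes has r of 0.55 to 0.97, and the last row and column, Nts, lie between -0.05 and 0.29.

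Among 5301 tested genes with a mean FPKM of at least 5, up to 3 per precursor were taken whose levels over the 9 libraries were most like it, and the closest are named here. Picking the highest of 5301 values over 9 libraries gives a high r by selection, so these are descriptions without a test. Nap1l5 was closest to Penk (r = 0.987), followed by Celf4, an RNA-binding protein of neurons, and by Cpe, the carboxypeptidase that trims peptide precursors in vesicles (r = 0.963). Syt5, a synaptotagmin of secretory vesicles, was closest to Grp (r = 0.981) and Pdyn (r = 0.960) and second for Tac2, whose closest gene was Serpinb1b (r = 0.982). Ly6h was closest to Sst (r = 0.975) and among the 3 closest to Npy, whose closest gene was Bex1 (r = 0.973). For Tac1 it was Pld3 (r = 0.957), for Cck it was Cacng3, an auxiliary subunit of AMPA receptors (r = 0.936), for Vip the proton pump subunit gene Atp6v1g2 (r = 0.927) and for Nts the centrin gene Cetn3 (r = 0.905).

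Markers of interneurons moved with the precursor genes from library to library, and those of several other cell types did not. Of 10 tested markers of dorsal excitatory interneurons, 8 were highest in untrained 1, and their summed level was 94.0, 66.4 and 61.2 CPM in sham, 127, 54.9 and 58.4 CPM in untrained, and 91.9, 76.1 and 53.2 CPM in SBES libraries. All 10 had a positive correlation with the mean log2 level of the 9 covarying genes, with a median r of 0.83 (n = 9 libraries). The share of all tested genes with a positive or negative correlation was not computed, nor were these correlations without untrained 1. Counts by sign, here and for the lists below, are thus descriptions without a background. Tlx3, a transcription factor that defines these neurons, had an r of 0.94 and was at 2.64 CPM in untrained 1 and at 0 in sham 3 and untrained 2. Summed markers of motor neurons went the other way, with 215, 454 and 483 CPM in sham, 152, 350 and 372 CPM in untrained, and 379, 265 and 379 CPM in SBES libraries. Of these 11 markers 7 were lowest in untrained 1 and 10 had a negative correlation with the precursor genes, among them Prph (r = -0.81) and Chat (r = -0.77). Inhibitory interneuron markers summed to 157, 126 and 101 CPM in sham, 175, 117 and 111 CPM in untrained, and 197, 148 and 96.6 CPM in SBES libraries, and 3 of the 9 tested were highest in untrained 1. Of these 9, 8 had a positive correlation with the precursor genes, with a median r of 0.74.

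Markers of primary sensory neurons, which also make Tac1, were nearly absent, with a sum of 1.21 to 3.90 CPM and with Scn10a and Mrgprd at 0 in all libraries. Sums of pan-neuronal markers were 7098 CPM in untrained 1 and 6520 to 13065 CPM in the others, so the library with the highest precursor levels was not among the highest in general neuronal transcripts. Oligodendrocyte markers were at their lowest there, at 38410 CPM against 47139 to 109195 CPM. Astrocyte markers were also lowest in untrained 1, at 1680 CPM, and highest in SBES 3, at 4996 CPM. Microglia markers were highest in SBES 3 (1192 CPM), and endothelial and pericyte markers in untrained 2 (437 CPM). The neutrophil genes S100a8 and S100a9 were highest in sham 1 (1009 and 411 CPM) and next in untrained 1 (459 and 140 CPM), the same pair of libraries that led for Sst, Npy, Tac2, Grp and Cck. Among all these lists 1 gene was called, Gata2, a transcription factor of neurons that contact the cerebrospinal fluid, which rose in SBES against sham (4.59 ± 0.57 to 20.7 ± 12.6 CPM, log2 fold change 2.17, SE 0.40, edgeR adjusted p = 0.046). Without sham 1, sham 2, sham 3 or SBES 3 its adjusted p was 0.088, 0.183, 0.270 and 0.144, by limma it was 0.158, and with only the 6 libraries compared 0.078. The 4 tested markers of these neurons did not move alike. In SBES against sham, 1 rose and 1 fell with an unadjusted edgeR p under 0.05. The 6 listed markers summed to 13.4, 14.3 and 12.3 CPM in sham, 9.39, 15.0 and 12.9 CPM in untrained, and 24.5, 13.5 and 40.8 CPM in SBES libraries. The part of cell makeup, of Malat1 or of library quality in the precursor levels was not tested.

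**Figure D4:**
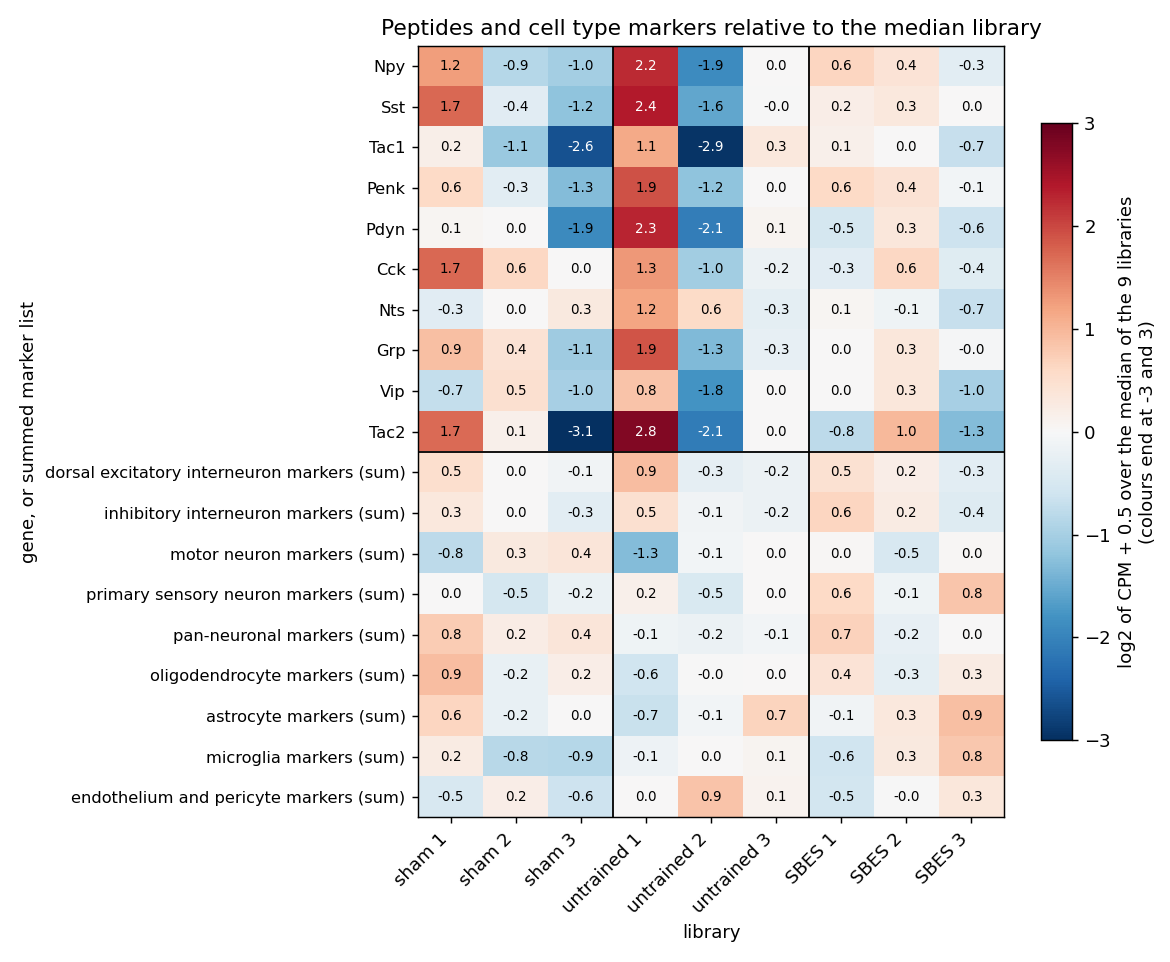
Log2 of CPM + 0.5 relative to the median of the 9 libraries, for the 10 precursor genes (upper rows) and for summed marker lists of cell types (lower rows), with libraries in columns. Untrained 1 is high for the precursor genes and for dorsal excitatory markers and low for motor neuron markers, and sham 3 and untrained 2 are low for most precursor genes.

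Receptors for these peptides, most of them coupled to G proteins, were scarce except for neurotensin. Of 25 receptor genes 18 passed the filter, none was called in any comparison, and Npy6r was at 0 in every library. By mean FPKM the leading receptor of each peptide was Ntsr2 for neurotensin (282), Cckbr for cholecystokinin (2.81), Sstr2 for somatostatin (2.27), Npy1r for neuropeptide Y (1.37), Vipr2 for vasoactive intestinal peptide (0.576), Tacr1 for substance P (0.568), Oprk1 for dynorphin (0.484), Tacr3 for neurokinin B (0.393), Grpr for gastrin-releasing peptide (0.372) and Oprd1 for enkephalin (0.366). Ntsr2, a receptor known mainly from astrocytes, reached 624, 808 and 708 CPM in sham, 897, 891 and 817 CPM in untrained, and 965, 650.0 and 1454 CPM in SBES libraries. Its untrained libraries all lay above its sham libraries, the lowest at 817 CPM against the highest at 808 CPM. These groups did not overlap for 9.76% of all genes tested. The log2 fold change of 0.28 (SE 0.29) did not pass the test. Of the receptors, 7 of 18 were highest in untrained 1, among them Oprk1, which had an r of 0.90 with the 9 covarying precursors. The smallest unadjusted p values were those of Vipr2 (4.04 ± 1.33 CPM in sham, 1.34 ± 0.68 in SBES), Cckar (0.363 ± 0.031 and 0.969 ± 0.290 CPM) and Oprm1 (0.934 ± 0.515 in untrained and 2.91 ± 2.88 CPM in SBES). Oprm1 was at 6.24 CPM in SBES 1. In SBES 2 and SBES 3 it was at 1.39 and 1.11 CPM, within the untrained range of 0.557 to 1.52 CPM.

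Enzymes and proteins that process and pack the precursors were all expressed, and all 17 passed the filter without a call in any comparison. Of these 9 were highest in untrained 1, as 15.0% of all tested genes were. A positive correlation with the 9 covarying precursors was found for 15, with a median r of 0.78, and its share over all genes was not computed. Cpe measured 1839, 1257 and 1156 CPM in sham, 2942, 1218 and 1595 CPM in untrained, and 2061, 2063 and 1618 CPM in SBES libraries. Chgb, a granin of the vesicle core, was highest in untrained 1 at 313 CPM and next in sham 1 at 229 CPM, with 57.6 to 156 CPM in the other 7 (r = 0.91). Vgf, a granin induced by neuronal activity, was at 21.6, 12.4 and 21.5 CPM in sham, 12.03, 6.96 and 15.9 CPM in untrained, and 49.8, 22.3 and 26.7 CPM in SBES libraries. Its SBES libraries all lay above the others, though SBES 2 at 22.3 CPM was close to sham 1 at 21.6 CPM. Over all genes, SBES libraries did not overlap untrained ones for 10.4% and sham ones for 13.8%. The log2 fold change of Vgf against untrained, 1.50 (SE 0.38), missed the threshold (edgeR adjusted p = 0.749). Chga was at 212 ± 34.1 CPM in untrained against 355 ± 49.5 CPM in sham and 315 ± 15.9 CPM in SBES libraries, and Furin, a convertase of the secretory pathway, at 2.36 ± 0.44, 1.72 ± 1.25 and 5.77 ± 4.08 CPM in these groups, and neither passed. In SBES against untrained, 5 of the 17 had an unadjusted edgeR p under 0.05, all higher in SBES, against 5.37% of all genes in either direction. These were Vgf, Chga, Furin, Pcsk1n and Ctsl. SBES 1, with most mitochondrial counts, was the highest SBES library for Vgf, Chga, Furin (10.5 against 3.61 and 3.22 CPM) and Pcsk1n (2030 against 1083 and 1204 CPM). It was the lowest for Ctsl (276 against 376 and 387 CPM).

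Of 12 genes for peptidases that degrade neuropeptides outside the cell or in the cytosol, 10 passed the filter and none was called. Ace, the angiotensin-converting enzyme, was at 1.76 ± 0.26 CPM in sham, 3.20 ± 0.62 CPM in untrained and 3.97 ± 0.43 CPM in SBES libraries, and both injured groups lay above all sham libraries. Such a lack of overlap with sham was found for 9.76% of all genes in untrained and for 13.8% in SBES libraries. Thop1 was at 33.2 ± 7.16, 22.2 ± 3.46 and 31.0 ± 6.34 CPM and Nln at 11.1 ± 2.84, 10.5 ± 1.63 and 16.6 ± 3.39 CPM in the same order.

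Among 21 further peptide genes, 17 passed the filter and 1 was called, Calca, which encodes calcitonin gene-related peptide, a peptide that motor neurons themselves make. In SBES against sham, Calca fell by 2.54 on the log2 scale (SE 0.41, edgeR adjusted p = 0.029), and its adjusted p was 0.073 without sham 2, 0.166 without sham 3, 0.124 without SBES 3 and 0.052 by limma. It measured 213, 276 and 546 CPM in sham, 87.3, 66.1 and 44.3 CPM in untrained, and 63.7, 78.2 and 35.9 CPM in SBES libraries. All sham libraries lay above all injured ones. Over all genes, 9.76% did not overlap between untrained and sham and 13.8% between SBES and sham. For Calca, untrained against sham gave -2.39 (SE 0.41, edgeR adjusted p = 0.184). The correlation of Calca with the 9 covarying precursors was -0.13. Uts2b, which encodes a urotensin peptide, had 24.4 ± 12.9 CPM in sham, 3.88 ± 3.29 CPM in untrained and 1.50 ± 1.43 CPM in SBES libraries (adjusted p = 0.068 for SBES against sham). Crh, the corticotropin-releasing hormone gene, went the other way, with 2.71 ± 3.03, 18.0 ± 13.0 and 19.5 ± 3.60 CPM, and did not pass (adjusted p = 0.177). Of the 17 tested, 9 were highest in untrained 1 and 13 had a positive correlation with the 9 precursors, among them Pnoc (r = 0.87), which encodes nociceptin, and Gal (r = 0.84), which encodes galanin. Of all tested genes 15.0% were highest in untrained 1, and the share with a positive correlation was not computed.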

How the data were processed

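The members and the gene and marker lists were chosen with earlier results of these data known. Per the labels' protocols, the authors aligned paired-end reads with Hisat2 and counted genes with HTSeq. Coordinates are on mm10, the build named in the submitters' processing notes; which annotation release and strand setting were used is not given in the sources used here. Whole-number counts and FPKM per library are in the deposited table, per the file headers. Recomputing FPKM from counts, library totals and the deposited exonic lengths gave 100% of values within 0.006.

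Counts of all 9 libraries entered 1 edgeR 4.0.16 quasi-likelihood fit in R 4.3.3 (filterByExpr, TMM, a coefficient per group, no covariates), with genes called at a Benjamini-Hochberg adjusted p under 0.05. The filter kept over 99.8% of counts. TMM factors were 0.727 in sham 1, 0.760 in SBES 1 and 1.02 to 1.16 in the others. The pipeline was tested on simulated data. Alternatives were DESeq2 1.42.0, limma 3.58.1 on log2(FPKM + 1), other normalization, filter and library sets, and a replicate block. Same-numbered SBES and sham libraries had r of 0.27, 0.16 and 0.14, all positive, which the rule used took as pairing. SBES 3 with sham 2, of unlike number, had r of 0.17, above the same-numbered pairs 2 and 3. The pairing is thus weakly based, and it comes from the data, not the labels. In untrained against sham the same-numbered pairs had r of 0.39, 0.0010 and 0.22, also all positive but with pair 2 near 0. Libraries of unlike number reached 0.27 there. In SBES against untrained the same-numbered pairs had r of 0.24, -0.17 and 0.26. Named genes are the 10 members, called list genes, up to 3 of smallest p per peptide list, each peptide's leading receptor and the closest genes by correlation. Gata2, S100a8 and S100a9, Malat1, Tlx3, Pcsk1n, Ctsl and other markers were named after their values were seen. PCR copies cannot be told from molecules.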

Additional observations from a re-analysis of the deposited data

How the results depend on the processing

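None of the 10 genes was called in any comparison under median-ratio scaling, DESeq2, limma, the replicate block, the 6 libraries compared alone, the omission of libraries numbered 1, or any single library left out; the range of called members with 1 library left out was 0 to 0. Without a filter on low counts, 2 were called in untrained against sham (Tac1, edgeR adjusted p = 0.040, and Pdyn, 0.0045) and 2 in SBES against untrained (Pdyn, 0.030, and Tac2, 0.00025), with SEs of 0.29 to 0.42 in place of 0.35 to 1.15. Genes called in untrained against sham were 0, and 19 by DESeq2, 134 without a filter, 4 with the replicate block, 47 without the 3 libraries numbered 1 and 0 to 0 with 1 library left out. In SBES against untrained they were 0, and 33, 186, 0 and 13 in that order, 1 by limma and 0 to 1. In SBES against sham they were 55, and 300, 517, 132 and 581, 19 by limma and 0 to 86, the 0 without sham 3.

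Directions turned often. Omitting the 3 libraries numbered 1, log2 fold changes in SBES against untrained became 0.74 (Npy), 0.72 (Sst), 0.22 (Tac1), 0.65 (Penk), 0.61 (Pdyn), 0.76 (Cck), 0.94 (Grp), 0.52 (Vip) and 0.94 (Tac2), in untrained against sham -0.61 (Grp) and -0.63 (Vip), and in SBES against sham 0.89 (Sst), 0.33 (Grp), -0.12 (Vip) and 0.98 (Tac2). The replicate block turned Npy to 0.061 in SBES against untrained, and Sst, Grp and Tac2 to 0.31, 0.10 and 0.30 in SBES against sham; it changed no other direction and no call. Limma turned Tac1 to 0.042 in SBES against untrained and Sst to 0.11 in SBES against sham. The cause was not tested.

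With 1 library left out, ranges that crossed 0 in untrained against sham were -0.80 to 1.97 (Npy), -1.13 to 1.86 (Sst), -0.30 to 1.55 (Penk), -0.23 to 2.08 (Pdyn), -1.48 to 0.028 (Cck), -1.04 to 0.95 (Grp), -0.43 to 1.09 (Vip) and -1.24 to 2.20 (Tac2). In SBES against untrained they were -1.22 to 0.94 (Npy), -1.45 to 0.73 (Sst), -0.93 to 0.38 (Tac1), -0.91 to 0.79 (Penk), -1.86 to 0.46 (Pdyn), -0.70 to 0.59 (Cck), -1.12 to 0.88 (Grp), -0.69 to 0.58 (Vip) and -2.51 to 0.67 (Tac2). In SBES against sham they were -0.24 to 1.27 (Npy), -0.85 to 0.91 (Sst), -0.25 to 0.54 (Pdyn), -0.60 to 0.29 (Grp), -0.24 to 0.90 (Vip) and -1.62 to 0.72 (Tac2). Depth limits Vip most, with as few as 11 counts in a library, and the number of libraries, 3 a group, limits all 10 genes.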
